A study of Mus musculus with 6 samples.

Results

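The somite segmentation clock was examined through 6 genes, Hes7, Lfng, Dll1, Dll3, Mesp2 and Ripply2, in whole mouse embryos that lacked Fzd7 or both Fzd2 and Fzd7. Both genes, Fz2 and Fz7 in the label text, encode related Frizzled receptors for Wnt ligands. The members were chosen by name as known clock and segment boundary genes, and all 6 were found among the 18193 genes with a probe set of 1 gene symbol. They had 7 probe sets of 34945, 1 for each gene except Lfng, which had 2, and each gene was read from its brightest probe set. RNA came from embryonic day 8.5, with 3 arrays of the genotype Fz2+/+; Fz7-/- (single knockout) and 3 of Fz2-/-; Fz7-/- (double knockout). Both groups thus lacked Fzd7, and the labels gave all arrays a mixed C57BL6/129 background, mixed gender and no deletion driver. The comparison asked what loss of Fzd2 adds in embryos without Fzd7. Wild-type embryos were not analysed here.

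Somites, the blocks of mesoderm that form vertebrae, ribs and trunk muscle, are cut in regular order from the presomitic mesoderm of the tail end. In that tissue Notch, Wnt and FGF target genes switch on and off in waves, and the repressor Hes7 paces them by shutting down its own gene and Lfng. Where a wave stops, Mesp2 sets the next boundary and Ripply2 then ends the boundary programme. An array of whole embryos averages over all phases of the cycle and all tissues. In such bulk RNA, fewer presomitic cells and less RNA per cell cannot be told apart.

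Stretches of DNA just upstream of annotated start sites are shown for Lfng, which held most of the motif matches, for Dll1 and Dll3, whose values followed each other over the arrays, and for Ripply2, which had the largest difference between the groups. Each is a RefSeq window (GRCm38.p6) of 250 bases that ends 1 base before the start site, written 5′ to 3′ on the gene's strand. All 6 genes had a window, and Dll1, with 2 start sites, had 2, of which the outer one is shown. Capitals mark the motif letters found on either strand.
Lfng, chr5:140607091-140607340, plus strand: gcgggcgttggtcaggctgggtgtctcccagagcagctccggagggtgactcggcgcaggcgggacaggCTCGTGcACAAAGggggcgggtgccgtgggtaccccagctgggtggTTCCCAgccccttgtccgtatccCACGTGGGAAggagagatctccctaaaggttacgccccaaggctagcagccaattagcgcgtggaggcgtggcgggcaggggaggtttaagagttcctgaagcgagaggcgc
Dll1, chr17:15376933-15377182, minus strand: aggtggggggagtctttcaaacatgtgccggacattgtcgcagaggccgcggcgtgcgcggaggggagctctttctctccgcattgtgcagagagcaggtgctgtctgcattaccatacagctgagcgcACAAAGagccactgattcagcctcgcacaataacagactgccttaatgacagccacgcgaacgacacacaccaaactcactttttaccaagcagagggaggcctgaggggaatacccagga
Dll3, chr7:28301786-28302035, minus strand: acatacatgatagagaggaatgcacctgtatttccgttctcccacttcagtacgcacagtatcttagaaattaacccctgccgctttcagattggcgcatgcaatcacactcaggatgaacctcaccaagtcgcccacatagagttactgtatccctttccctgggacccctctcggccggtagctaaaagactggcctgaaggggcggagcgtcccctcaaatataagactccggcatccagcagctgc
Ripply2, chr9:87015287-87015536, plus strand: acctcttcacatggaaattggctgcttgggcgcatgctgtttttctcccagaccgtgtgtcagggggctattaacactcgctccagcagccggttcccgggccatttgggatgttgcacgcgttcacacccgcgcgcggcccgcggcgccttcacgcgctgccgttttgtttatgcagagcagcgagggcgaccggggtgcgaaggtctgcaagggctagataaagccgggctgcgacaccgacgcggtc
For Hes7 only the 30 bases around its Rbpj core are given, on the plus strand. The Hes7 window lies inside the annotated span of the gene, which begins at 69118906, so it precedes an inner start site.
Hes7, chr11:69120261-69120290: tcctcccctcacTTCCCAcatttggggcta

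The motifs searched on both strands were TGGGAA, the core bound by the Notch effector Rbpj, CACGTG, an E-box, CACNAG, the N-box of Hes repressors, AGGTGT, a T-box site core, and CTTTGA and CTTTGT, cores bound by the Wnt effectors of the Tcf and Lef family. The Rbpj core stood upstream of Hes7 and Lfng and in 21.6% of all 32851 windows of the same length. The N-box was found in 36.7% of windows, those of Hes7 and Lfng among them. The N-box of Hes7 lies outside the 30 bases shown. Of the 6 genes, Lfng alone held the E-box, found in 6.02%, and that E-box overlapped an Rbpj core by 2 letters. CTTTGT stood upstream of Lfng and of the outer Dll1 start and in 16.5% of windows. CTTTGA and AGGTGT, in 13.8% and 11.8% of windows, were in none of the 7 member windows, and the windows of Dll3, Mesp2 and Ripply2 held none of the 6 motifs. These matches describe letters in the windows and do not show binding.

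Fzd2, the gene that separates the groups, had log2 values of 9.86 to 10.01 in the single knockout and 7.30 to 7.69 in the double knockout, so the groups were separate. It fell by 2.42 (SE 0.11, n = 3 per group, limma adjusted p = 0.00567), and differed by -2.30 without double knockout replicate 1 (limma adjusted p = 0.000601). The call was lost when any single knockout array or double knockout replicate 3 was left out, and with the mean of the probe sets. Double knockout replicate 1 differed most from the rest. Its correlation with each of them across genes was 0.986 to 0.990, against 0.997 to 0.998 among the remaining 5. In it 479 genes were over 1 log2 unit away from the average of the remaining arrays, against 18 to 37 genes in any of those. Markers of other tissues were summed on the linear scale and are given as log2. Those of streak and epiblast (4 of 5 measured), yolk sac (6 of 6), placenta (5 of 6) and maternal decidua (3 of 3) were higher in it than in all other arrays, at 10.98, 14.96, 9.12 and 11.29 against at most 8.16, 12.86, 6.85 and 10.02. The placental genes Elf5 and Tpbpa, at 4.72 and 4.44 there, did not share this. Of the decidual genes Prl8a2 carried the sum, at 11.14 against at most 9.63, while Ptgds read 7.11 against at most 6.88 and Dcn was lowest there, at 6.79. Pou5f1 carried the streak and epiblast sum there, at 10.77 against at most 7.32. Nanog read 6.91 against at most 4.01, Mixl1 6.89 against at most 6.49 and Eomes 4.81 against at most 4.62. Markers of heart (4 of 4), somite (2 of 2), neural tissue (3 of 3) and primitive red cells (3 of 4) were lower, at 12.08, 9.85, 11.17 and 7.15 against at least 13.74, 10.06, 11.60 and 11.35. The red cell sum was also low in double knockout replicate 3, at 11.35 against 15.06 in replicate 2 and at least 14.50 in the single knockout. In that array the streak and epiblast sum, at 8.16, was above the single knockout range of 7.31 to 7.74. Somite sums of double knockout replicates 2 and 3, at 10.07 and 10.06, were also below the single knockout range of 10.18 to 10.42. Results are therefore given with and without double knockout replicate 1, and the part of these tissues in the results was not tested.

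None of the 6 clock genes differed between the genotypes at an adjusted p under 0.05. Limma called 0 of 6 members, where 1 of 18193 genes, or 0.00550%, was called lower and 0 genes higher. At an unadjusted p under 0.05 there were also 0 members, against 3.00% of all genes on the lower side and 1.96% on the higher. All 6 differences were below 0 on the values as deposited, as were 53.8% of all differences, with a median of -0.15 for the 6 genes and -0.0093 for all genes. The sign was that of a near-zero value for Hes7, which turned under a second quantile normalization. In none of the 6 genes were the groups separate. Of all 18193 genes, 1201 (6.60%) had every double knockout array below every single knockout array, and 882 had every one above. With 6 genes, a count of 0 is near those shares.

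**Figure D1:**
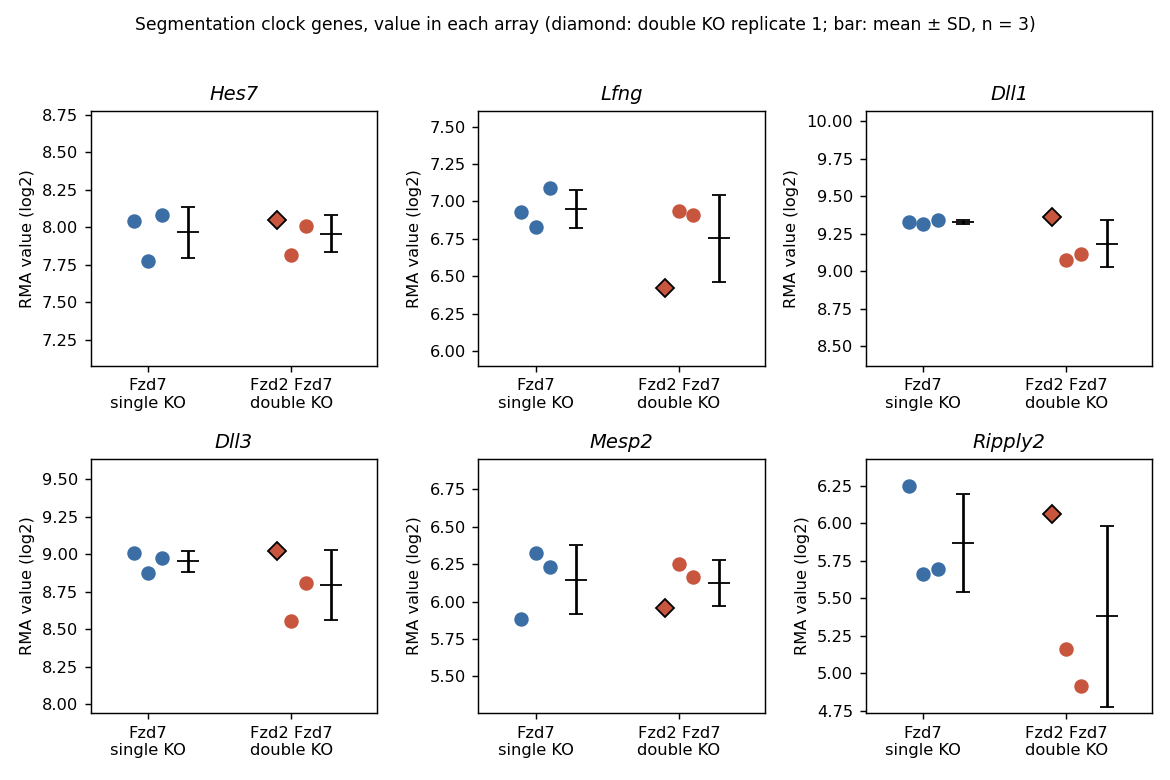
Deposited RMA value (log2, vertical axis) of each clock gene in each of the 6 arrays, single knockout in blue and double knockout in red, with group mean ± SD (n = 3) as bars and a diamond for double knockout replicate 1. All panels span the same number of log2 units. Dll1, Dll3 and Ripply2 show double knockout replicates 2 and 3 below the single knockout arrays and the diamond among or above them.

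The clock repressor gene Hes7 had overlapping groups and the smallest difference of the 6 genes. It encodes the basic helix-loop-helix repressor whose unstable protein sets the period of the cycle. Its log2 values were 8.04, 7.77 and 8.08 in the single knockout (replicates 1 to 3, as in each series of values that follows) and 8.05, 7.81 and 8.01 in the double knockout. The lowest and highest values of both groups were both from the single knockout, so the double knockout lay within its range. The difference was -0.0083 (SE 0.11, limma adjusted p = 0.990, n = 3 per group), with a 95% confidence interval from -0.27 to 0.25 on the log2 scale. That interval runs from 83.2% to 119% of the single knockout level, so a change larger than this in either direction lies outside it. Without double knockout replicate 1 the difference was -0.05 (limma adjusted p = 0.959).

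Lfng encodes Lunatic fringe, a glycosyltransferase that adds sugar to Notch and so changes which ligands it answers to. It read 6.93, 6.83 and 7.09 in the single knockout and 6.42, 6.93 and 6.91 in double knockout replicates 1 to 3. Replicate 1 of the double knockout was the lowest of the 6 arrays, and the remaining double knockout arrays lay inside the single knockout range. The difference of -0.20 (SE 0.15, 95% interval -0.56 to 0.17, limma adjusted p = 0.872) shrank to -0.03 (SE 0.09, adjusted p = 0.972) without that array. The dimmer Lfng probe set read 4.18, 4.10 and 4.31 in the single knockout and 4.10, 4.16 and 3.93 in the double knockout, and there the lowest array was double knockout replicate 3. Its difference was -0.13 (SE 0.09, limma adjusted p = 0.920 over all probe sets).

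The delta genes Dll1 and Dll3 had the same order of double knockout arrays. Dll1 encodes the Notch ligand that activates the receptor on neighbouring presomitic cells, and Dll3 a divergent relative that acts inside the cell and lowers Notch activity. Dll1 read 9.33, 9.31 and 9.34 in the single knockout and 9.36, 9.08 and 9.11 in double knockout replicates 1 to 3. The single knockout arrays were close together (SD 0.014), replicate 1 of the double knockout lay just above them, and replicates 2 and 3 lay below. With all arrays the Dll1 difference was -0.14 (SE 0.09, 95% interval -0.35 to 0.06, limma adjusted p = 0.872), and the exact permutation p was 0.4.

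Without double knockout replicate 1 the Dll1 difference was -0.23 (SE 0.05, 95% interval -0.36 to -0.10), or 85.3% of the single knockout level. The unadjusted limma p was then 0.00539 and the adjusted p 0.701, so the gene did not pass. Dll3 read 9.01, 8.87 and 8.98 in the single knockout and 9.02, 8.55 and 8.81 in the double knockout. Again replicate 1 was the highest of the 6 arrays and replicates 2 and 3 lay below all single knockout arrays. The Dll3 difference was -0.16 (SE 0.12, 95% interval -0.45 to 0.13, limma adjusted p = 0.872) with all arrays. It was -0.27 (SE 0.09, interval -0.50 to -0.05, limma unadjusted p = 0.0259, adjusted p = 0.707) without replicate 1, or 82.9% of the single knockout level.

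Mesp2, a basic helix-loop-helix factor that marks the front of the next segment and places its boundary, had overlapping groups. It read 5.88, 6.32 and 6.23 in the single knockout and 5.96, 6.25 and 6.16 in the double knockout. The double knockout lay inside the single knockout range, and the lowest array of each group was replicate 1. The difference was -0.02 (SE 0.13, 95% interval -0.35 to 0.30, limma adjusted p = 0.982), and without double knockout replicate 1 it had the other sign, at 0.06 (SE 0.13, adjusted p = 0.957).

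Ripply2, which encodes a small corepressor adaptor that removes Tbx6 from the forming segment and so ends Mesp2 expression, had the largest difference of the 6 genes. It read 6.25, 5.66 and 5.70 in the single knockout and 6.06, 5.16 and 4.91 in the double knockout. Replicate 1 was the highest array in each group, and double knockout replicates 2 and 3 lay 0.50 and 0.74 below the lowest single knockout array. The spread within the groups was the widest among the 6 genes (SD 0.33 and 0.60). The difference was -0.49 (SE 0.32, limma adjusted p = 0.872), with an interval from -1.25 to 0.27, and the exact permutation p was 0.3.

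Without double knockout replicate 1 Ripply2 differed by -0.83 (SE 0.19, 95% interval -1.29 to -0.37), or 56.2% of the single knockout level. Its unadjusted limma p was 0.00432 and its adjusted p 0.701. Leaving out both replicate 1 arrays, a setting chosen after the data were seen, gave -0.64 (SE 0.10, limma adjusted p = 0.358). Without the first double knockout array 3 of the 6 genes, Dll1, Dll3 and Ripply2, had all double knockout arrays below all single knockout arrays, as did 12.3% of all genes. The same 3 had an unadjusted p under 0.05 on the lower side, as did 3.76% of all genes, and 0 passed after adjustment. Ripply2, Mesp2 and Lfng were dimmer than the median gene, and RMA compresses differences of dim genes.

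**Figure D2:**
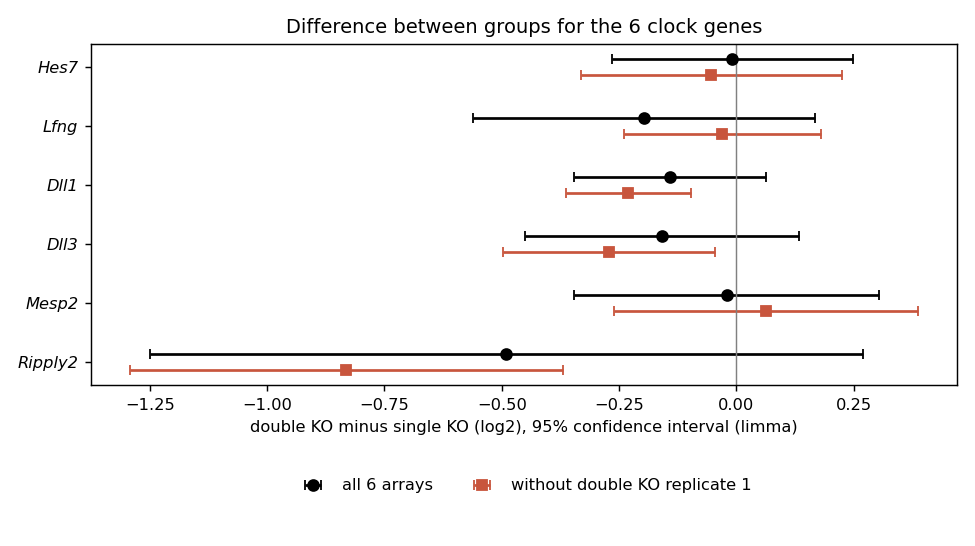
Log2 difference (horizontal axis, double minus single knockout) of each clock gene with its 95% confidence interval from limma, for all 6 arrays (black circles) and without double knockout replicate 1 (red squares). With all arrays every interval includes 0. Without that array the intervals of Dll1, Dll3 and Ripply2 lie below 0, though no adjusted p was under 0.05.

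The values of the presomitic mesoderm markers were set beside the clock genes within each array. Tbx6 and Msgn1 encode transcription factors that give presomitic cells their identity. Tbx6 read 7.13, 6.88 and 7.16 in the single knockout and 7.88, 6.75 and 6.96 in the double knockout. Msgn1 read 6.09, 6.23 and 6.27 in the single knockout and 6.59, 5.94 and 6.0 in the double knockout. Both were highest in double knockout replicate 1, and without it they differed by -0.20 and -0.22 (limma adjusted p = 0.807 and 0.707).

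Relative to the mean of both markers, all 6 clock genes lay below the single knockout range in double knockout replicate 1. The distance from the single knockout mean was smallest for Ripply2 (-0.42) and Hes7 (-0.53), near these for Dll3 (-0.54) and Dll1 (-0.58), and larger for Mesp2 (-0.80) and Lfng (-1.14). In replicates 2 and 3 the relative values of Dll1 were within the single knockout range, with a mean difference of -0.02. Those of Dll3 differed by -0.06, with replicate 2 below the single knockout range, at 2.21 against at least 2.27, and replicate 3 within it. Hes7 and Lfng lay above that range in both arrays, with mean differences of 0.16 and 0.18, and Mesp2 differed by 0.28. Ripply2 was below the single knockout range in all 3 double knockout arrays, at -1.18, -1.19 and -1.57 against -0.36, -0.90 and -1.01. This measure was chosen after the values were seen and carries no test. Probe sets differ in response, so only its change between arrays can be read, and by itself it does not tell which gene changed. In double knockout replicate 1 the marker mean was 0.61 above its single knockout mean. On the same scale Hes7, Dll1, Dll3 and Ripply2 differed there by 0.08, 0.04, 0.07 and 0.19, and Lfng and Mesp2 by -0.53 and -0.19.

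**Figure D3:**
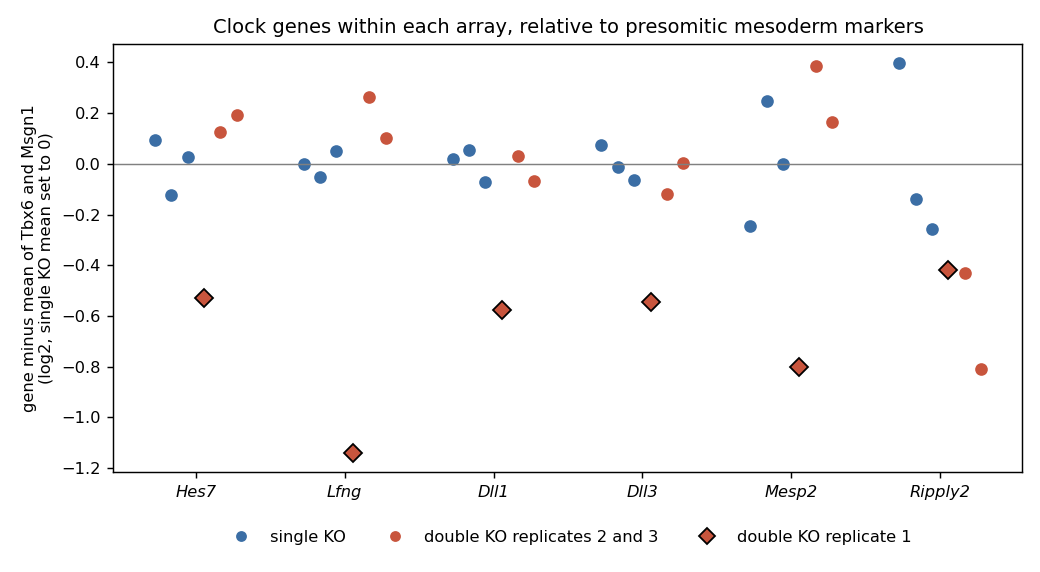
Each clock gene minus the mean of Tbx6 and Msgn1 in the same array (log2, single knockout mean set to 0), for single knockout arrays (blue), double knockout replicates 2 and 3 (red circles) and double knockout replicate 1 (diamonds). The diamonds lie from -0.42 to -1.14, below all blue points of their gene. For Ripply2 all 3 red points lie below the blue ones.

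Family relatives of the members, picked by family after values were seen, did not pass the test either. Hes5, a Notch target that is mainly neural in the embryo, read 7.76, 7.77 and 7.85 in the single knockout and 6.04, 7.40 and 7.07 in the double knockout, a difference of -0.96 (SE 0.33, limma adjusted p = 0.872) and of -0.56 without double knockout replicate 1. Hes1, a Notch target that also oscillates, differed by -0.08 (SE 0.12), with overlapping groups, and by 0.03 (SE 0.10), on the other side of 0, without that array. Manic fringe (Mfng) and radical fringe (Rfng), the remaining fringe enzymes, differed by -0.40 (SE 0.22) and -0.03 (SE 0.05), and by -0.12 (SE 0.06) and -0.02 (SE 0.05) without it. Mfng had all double knockout arrays below all single knockout arrays, at 6.74, 7.56 and 7.55 against 7.61 to 7.74. The Notch ligand gene Jag1 differed by 0.06 (SE 0.12), or by 0.19 (SE 0.08) without double knockout replicate 1. Mesp1, the neighbour and close relative of Mesp2 that is expressed in early streak mesoderm, read 7.61 in double knockout replicate 1 and 5.84 to 6.15 in the other 5 arrays. Mesp2 had no such value in that array.

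No list of pathway genes had a member past the threshold. Of 18 measured genes of the Notch pathway in the presomitic mesoderm, 12 differed below 0 and 6 above, with a median of -0.05, and 7 had separate groups on the lower side, against 6.60% of all genes. Those 7 included small differences, such as -0.03 (SE 0.05) for Maml1. Double knockout replicate 1 was the lowest array for 11 of the 18, against 29.6% of all genes. Without double knockout replicate 1 the counts were again 12 and 6, with a median of -0.04. Then 7 had separate groups on the lower side, against 12.3% of all genes. On the higher side there was 1, Jag1, against 1819 of 18193 genes. Nrarp, a Notch target that dampens the pathway, read 9.37, 9.31 and 9.33 in the single knockout and 8.76, 8.97 and 9.0 in the double knockout. Its groups were separate, and its difference was -0.42 (SE 0.08, limma adjusted p = 0.872), or -0.35 without double knockout replicate 1. Notch1, the receptor gene of the clock, differed by -0.24 (SE 0.07) with separate groups, or -0.18 without that array.

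Cyclic Wnt genes were spread on both sides of 0, with 4 of 7 below and a median of -0.01. Nkd1, a feedback inhibitor of Wnt signalling, differed by -0.20 (SE 0.08) and Dkk1, a secreted Wnt inhibitor, by 0.34 (SE 0.16). Without double knockout replicate 1 the differences were -0.20 and 0.26, and 6 of 7 genes of the list were below 0, with a list median of -0.10. FGF and MAPK feedback genes were below 0 in 2 of 8, with a median of 0.05. The MAPK phosphatase gene Dusp6 differed by -0.12 (SE 0.09) and Ptpn11, a phosphatase gene of FGF signalling, by -0.08 (SE 0.06). With double knockout replicate 1 left out these were -0.07 and -0.04, with 2 of 8 genes below 0 and a list median of 0.02.

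Genes of the presomitic mesoderm and its wavefront, the FGF and Wnt gradient that sets where cells become segments, were the highest of the 6 arrays in double knockout replicate 1 for 8 of 13, against 25.3% of all genes. With all arrays 6 of 13 were below 0 (median 0.0099), and without replicate 1 there were 11 of 13 (median -0.07). Wnt5a, a Wnt ligand gene of the tail bud, differed by -0.16 (SE 0.08) and Fgf8, which keeps presomitic cells immature, by -0.19 (SE 0.12). Without replicate 1 the differences were -0.22 (SE 0.07, limma adjusted p = 0.707) and -0.07 (SE 0.08). Among 11 segment boundary genes 9 were below 0 with all arrays (median -0.09), but 5 without replicate 1 (median 0.01). The adhesion gene Pcdh8 differed by -0.52 (SE 0.22) and Uncx, which marks the rear somite portion, by -0.94 (SE 0.56), or by -0.28 and -0.26 without replicate 1.

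Formed somite genes were below 0 in 10 of 11, with a median of -0.21, and in 10 of 11 without double knockout replicate 1, with a median of -0.10. Double knockout replicate 1 was the lowest array for 7 of these 11 genes, against 29.6% of all genes. Meox1, a somite transcription factor gene, read 8.98, 9.32 and 9.33 in the single knockout and 8.37, 8.78 and 8.74 in the double knockout, and so lay lower in each double knockout array. Its difference was -0.58 (SE 0.15, limma adjusted p = 0.872). The early muscle gene Myf5 differed by -1.25 (SE 0.44, limma adjusted p = 0.872), with separate groups. With that array left out, Meox1 differed by -0.45 (SE 0.12) and Myf5 by -0.79 (SE 0.28). Of the clock genes, only Lfng was lowest in double knockout replicate 1 on its brightest probe set, while Dll1 and Dll3 were highest there.

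**Figure D4:**
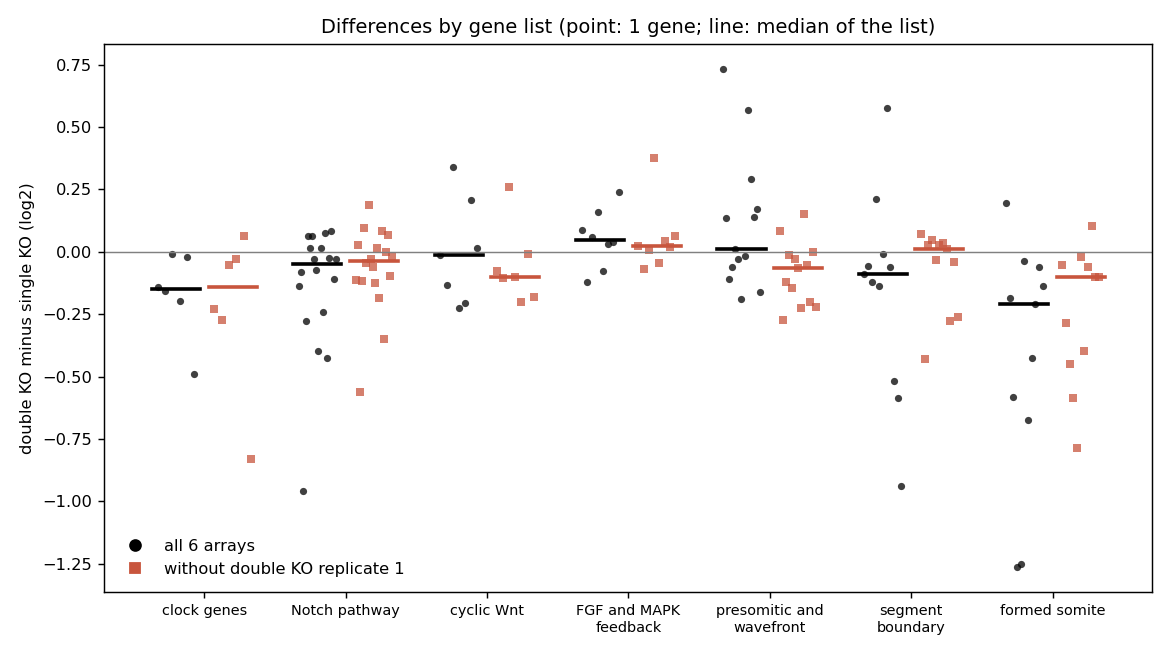
Log2 difference (vertical axis, double minus single knockout) of each measured gene (points) and list median (lines) for the 6 clock genes and 6 pathway lists, with all 6 arrays (black) and without double knockout replicate 1 (red). The clock gene median is -0.15 with all arrays and -0.14 without that array. The formed somite median moves from -0.21 to -0.10, and the presomitic median from 0.0099 to -0.07.

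Patterns over the 6 arrays were compared by Pearson correlation among 1092 genes at or above median brightness that varied by an SD of at least 0.2. Predicted and cDNA-clone genes were left out of these. The closest to Hes7 were Evx1, Zic2 and Cdx4 (r = 0.83, 0.82 and 0.76), of which Evx1 and Cdx4 encode transcription factors of the tail end. The closest to Dll1 were Slc19a2, Tex264 and Fgfbp3 (r = 0.95, 0.95 and 0.91), and to Dll3 Tex264, Lysmd2 and Me1 (r = 0.98, 0.97 and 0.96), so that Tex264 was near both delta genes. Lfng was matched most closely by Pkia, Insig1 and Heph (r = 0.99, 0.98 and 0.98), Mesp2 by Ppox, Oxsm and Haghl (r = 0.98, 0.96 and 0.95), and Ripply2 by Dctd, Tmem242 and Raly (r = 0.91, 0.90 and 0.89). These are the highest of many correlations over 6 arrays that share 1 array standing apart, and they are given as descriptions.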

How the data were processed

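RNA from whole mouse embryos was hybridised to 6 single-colour Affymetrix arrays, 3 per genotype. The table that the authors deposited holds log2 values of 45101 probe sets. RMA was used (background correction, scaling of arrays to a common distribution, summary per probe set) per the submitters' processing notes. The sources used here do not give its version. Titles set the groups. Whether samples were pools, or replicates separate litters, is not in the labels, so p-values reflect only variation between these samples, possibly technical.

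Probe sets with 1 gene symbol in the platform annotation gave 18193 genes, each read from its brightest probe set. Limma 3.58.1 in R 4.3.3 (lmFit, eBayes, two-sided) compared double with single knockout over all genes, with Benjamini-Hochberg adjustment and a threshold of 0.05. Exact two-sided permutation tests of 3 against 3 cannot go below 0.1. The test was checked on simulated data, which held no array standing apart as double knockout replicate 1 does. From each pathway list the 2 genes of smallest unadjusted p were named, besides those past the threshold. Genes T and Ripply1 are not analysed here, and some other items are not reported here. The members and lists were chosen with earlier results of these data known. The labels do not say whether replicate numbers pair the samples. Deviations of same-numbered arrays from their group means correlated at 0.09, -0.04 and -0.13. These correlations cannot decide it, because double knockout replicate 1 enters the mean behind every double knockout deviation. Alternatives covered a replicate block, moderation, a filter on dim genes, probe set summary, scaling and leaving out each array. The number of arrays limits the precision.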

Additional observations from a re-analysis of the deposited data

How the results depend on the processing

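Under 15 other settings none of the 6 clock genes passed the threshold, and the smallest adjusted p of any was 0.197, for Ripply2 with the replicate block and double knockout replicate 1 left out. Dll1, Dll3, Lfng and Ripply2 stayed below 0 in every setting that tested them. The median of the 6 genes ran from -0.17 to -0.09. The difference of Hes7 changed sign to 0.0042 with a second quantile normalization, to 0.064 without double knockout replicate 2, and to 0.03 and 0.05 without single knockout replicates 1 and 3. That of Mesp2 changed to 0.06 without double knockout replicate 1 and to 0.068 and 0.02 without single knockout replicates 2 and 3. Leaving out single arrays moved Hes7 between -0.10 and 0.064, Mesp2 between -0.15 and 0.068, Ripply2 between -0.83 and -0.26, Dll1 between -0.23 and -0.09, Dll3 between -0.27 and -0.04 and Lfng between -0.29 and -0.03. The cause was not tested.

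The count over all genes was 1, Fzd2. It was 2 when all probe sets were tested, both of Fzd2, and 0 with the mean of the probe sets. The dimmer of these 2 Fzd2 probe sets had a limma adjusted p of 0.0494. Another Fzd2 probe set differed by -2.33 (SE 0.25, limma adjusted p = 0.453 over all probe sets) and did not pass. The count ran from 0 to 1 when single arrays were left out, with 0 without single knockout replicate 1, 2 or 3 or double knockout replicate 3. With the replicate block the count was 1 and no clock gene call changed. Ripply2 then differed by -0.49 (limma unadjusted p = 0.0135, adjusted p = 0.855), with an SE of 0.13 against 0.32 without the block. Of the single knockout arrays 1 of 3 correlated best with its own number. The block with double knockout replicate 1 left out, chosen after seeing the data, gave 12. With dim genes left out, Lfng, Mesp2 and Ripply2 were not tested, so the median of the 6 genes has no value there.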
